A study of Homo sapiens with 2 samples.

Results

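The genes described here are the TNF ligands and TNF receptors, taken from the RefSeq gene table of GRCh38 as the protein-coding genes whose symbol begins with TNFSF or TNFRSF, together with TNF, LTA, LTB, FAS, FASLG, CD40, CD40LG, CD70 and CD27. This gave 42 of 20037 protein-coding genes, 18 ligands and 24 receptors. The rule used names and no measured value, but the family was picked with earlier results of these data known. RUNX1 binding around them was read from a ChIPseq peak list of MCF10A, a human cell line of mammary epithelial origin. The unaltered line does not form tumours, which is not said here of the engineered cells. There was 1 library from the anti-RUNX1 immunoprecipitate and 1 library of input DNA, and both came from the same engineered cells, in which RUNX1 was deleted and put back with a lentivirus as an inducible gene. Doxycycline at 1 µg/ml had been given for 24 hours to switch it on. The binding is therefore that of induced RUNX1 in a knockout line, the knockouts of the study were grown from colonies of single cells, and RUNX1 at its natural level was not analysed here. A peak list holds no expression values, so the cell type could not be checked against markers and it is not known from these data which of the genes the cells use.

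TNF ligands are mostly trimers held in the membrane or shed from it, and each binds 1 or a few receptors on another cell. The receptors carry no enzyme of their own. Those with a death domain in the cytoplasmic tail can recruit FADD and caspase-8 or TRADD and RIPK1, the others bind TRAF adaptors directly and switch on NF-kappaB, and decoy receptors bind ligand without passing on the full signal. RUNX1 is a DNA-binding transcription factor that works with CBFB and recognises the core letters TGTGGT or TGCGGT.

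The list held 13591 peaks, called from 80338845 kept ChIP tags and 87410774 kept input tags. The height of a peak is its pileup, the count of ChIP tags, each extended, that cover its summit, with a median of 18 over the list and a lowest value of 10. Fold enrichment is the pileup over the local input level, each plus 1, and the −log10 q is the strength by which peaks were ranked. The input level here is the local background used by the peak caller, which does not go below the genome-wide background. A level at the genome background is thus a floor, where 39.5% of the list stood, and not a measured input height. Intervals given for pileups are exact 95% Poisson intervals and those for shares are 95% Wilson intervals. With no replicates, both cover counting error only and no test between samples was made. A gene without a peak is one where no summit passed the q-value limit of 0.05, which at the genome-wide background of 2.2 tags took at least 10 tags; weaker binding was not detectable at this depth.

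Sequences are shown first for the stretches where the recognition letters occur beside starts of these genes. RefSeq promoter windows of GRCh38.p14, reaching from 250 bases before to 50 bases after a listed start, were found for 27 of the 42 genes, with 36 windows in all. TGTGGT or TGCGGT on either strand was in 8 of the 36 windows, or 22.2%, against 19.0% of the 22199 windows of all protein-coding genes. Of the 321 windows that held a RUNX1 summit, 204 contained them, or 63.6%. The 9 distinct matches lay at 7 genes. Each is printed 5′ to 3′ on the strand of its gene, with 12 bases on either side and the matched letters in capitals, where ACCACA and ACCGCA are the same letters on the opposite strand.
LTA, chr6:31572107-31572136: gaacccccagccTGTGGTtctctcctaggc
TNFSF4, chr1:173205579-173205608: ctttttctaacaACCACAgtgttacatatt
TNFSF13B, chr13:108269448-108269477: cttatgaagccaTGTGGTcccaagcagaca
CD27, chr12:6443786-6443815: ctgacaggtgtgACCACAgcagtgtgacat
TNFRSF9, chr1:7940902-7940931: ctgtcacagagcTGTGGTgggaatttccca
TNFRSF9, chr1:7940860-7940889: cctggctgagtcACCGCActcctgtgtttg
TNFRSF11A, chr18:62325148-62325177: gccccgcgtcccACCGCAaaccaggggagc
TNFRSF11A, chr18:62325260-62325289: cacgggggcgggACCACAcagggccgcggc
TNFRSF21, chr6:47309993-47310022: ttcgcctttccaACCGCAcaaagagcccgg

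None of these 7 genes had a RUNX1 summit in the gene or within 5 kb, and 1 of them, TNFSF4, had a summit within 50 kb. That summit lay 22.7 kb below the lower end of the gene and 55.4 kb from its listed start. Conversely, of the 9 superfamily genes with a summit within 5 kb, 4 had a listed window and 0 of those windows held the letters. No summit lay in these windows, and the sequences under the peaks of the superfamily genes were not searched here, so this says nothing of the letters at the peaks. The LTA match falls in both of its listed windows, so the 8 windows are not independent. No superfamily gene with a listed start had a summit within 1 kb of it, that is 0 of 27, against 771 of 15843 protein-coding genes, or 4.87%. The 15 superfamily genes without a listed start could not be counted. Among them are CD70, TNFSF8, TNFRSF10A, TNFRSF10B and TNFRSF4, which all had a summit within 5 kb. That of TNFRSF4 lay 0.558 kb from an end of the gene, so the 0 does not describe the whole superfamily.

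For 9 of the 42 genes a RUNX1 summit was found inside the gene or at most 5 kb away, or 21.4% (11.7 to 35.9%), against 24.8% of all protein-coding genes. The superfamily genes are short, with a median length of 12.9 kb against 24.1 kb, and among the 200 protein-coding genes nearest in length to each of them 19.2% had a summit, which comes to 8.08 genes of 42. The superfamily share was thus close to both backgrounds. The 9 genes were the ligands FASLG, CD70, TNFSF8 and TNFSF14 and the receptors TNFRSF1A, TNFRSF10A, TNFRSF10B, TNFRSF4 and TNFRSF8. They made up 4 of 18 ligands, or 22.2% (9.0 to 45.2%), and 5 of 24 receptors, or 20.8% (9.24 to 40.5%). These intervals overlap almost entirely.

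With the gene body alone 7 genes had a summit, or 16.7%, against 18.7% of all genes and 12.4% of genes of like length. With 50 kb on either side 24 genes did, or 57.1%, against 52.1% and 49.0%. Among summits within 5 kb that were enriched at least 5-fold, 4 genes were left, or 9.52%, against 15.4% and 11.5%. The 4 were FASLG, CD70, TNFRSF10B and TNFRSF8. Under all 4 settings both backgrounds lay inside the superfamily's interval.

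**Figure D1:**
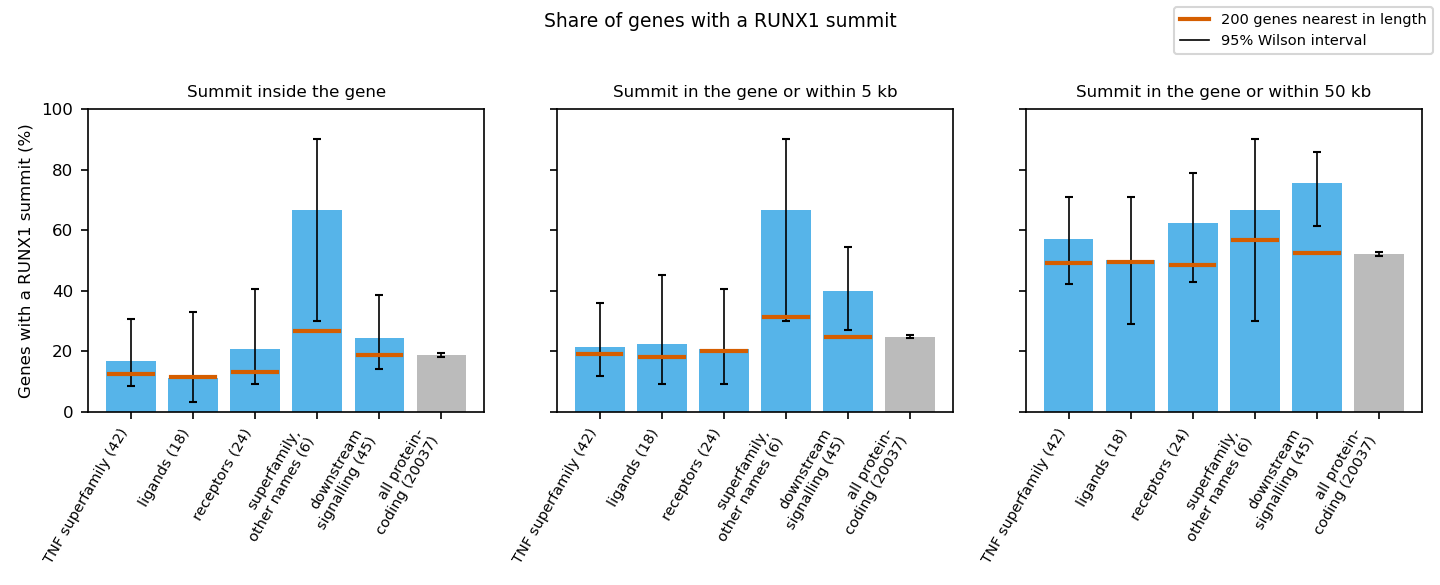
Share of genes with a RUNX1 summit inside the gene, within 5 kb and within 50 kb (vertical axis, percent of genes; group sizes in brackets). Bars with 95% Wilson intervals stand for the groups and orange lines for the 200 protein-coding genes nearest in length: the bars of the 42 superfamily genes are 16.7, 21.4 and 57.1%, beside 18.7, 24.8 and 52.1% for all protein-coding genes, and the tallest bar within 50 kb is that of the downstream signalling genes at 75.6%.

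Among the ligands, FASLG, which triggers apoptosis through FAS, had 1 peak inside the gene on chromosome 1, from 172662783 to 172663016. Its summit lay 3.74 kb past the listed start, with a pileup of 20 tags (12.2 to 30.9), a 5.26-fold enrichment and a −log10 q of 7.12. A stronger peak lay 20.1 kb before the start, with 36 tags (25.2 to 49.8) and a −log10 q of 16.1. Beside that stood a weaker one of 20 tags at 19.5 kb, and another of 15 tags lay at 38.3 kb. FASLG, like TNFSF18 and TNFSF4, is on the part of chromosome 1 where the input was raised. The input level at these peaks was 1.25 to 2.5 times the genome background. Without the arms of raised input, 8 superfamily genes and 3 ligands had a summit within 5 kb, FASLG no longer among them. The superfamily share was then 19.0%, against 21.9% of all genes. Whether the raised input had a part in the FASLG peaks was not tested.

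CD70, the ligand of CD27 on lymphocytes, had the strongest peak of any superfamily gene within 5 kb. It spanned 6578992 to 6579210 on chromosome 19, with its summit 2.57 kb below the lower end of the gene, and had 27 tags (17.8 to 39.3). It was enriched 8.74-fold, and its −log10 q was 16.3. Only 8.73% of the list was stronger, and the input level was at the genome background. The next ligand along, TNFSF9, known as 4-1BB ligand, had this same peak as its nearest, at 43.2 kb. TNFSF14, or LIGHT, which completes this cluster on chromosome 19, had a weak peak 4.4 kb above its upper end, with 14 tags (7.65 to 23.5) and a 3.99-fold enrichment. A taller one of 41 tags (29.4 to 55.6) lay 49.7 kb from TNFSF14, inside the complement gene C3.

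TNFSF8, the ligand of CD30, had 3 peaks within 5 kb on chromosome 9, all of them under the list's median −log10 q of 5.9. The one inside the gene had 11 tags (5.49 to 19.7) and a −log10 q of 1.41, and 99.7% of the list was stronger. The other two lay 3.16 and 3.41 kb below the lower end with 13 and 19 tags. All 3 were enriched less than 5-fold. Its neighbour TNFSF15, or TL1A, had summits 12.5 and 23.9 kb away, with 14 and 19 tags.

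The other ligands had no summit within 5 kb. TNFSF18, the ligand of GITR, had a peak of 32 tags (21.9 to 45.2) at 11.5 kb before its start, where the input level was 1.61 times the genome background. TNFSF4, or OX40 ligand, the longest of the genes at 278 kb, had its nearest summit at 22.7 kb. TNFSF10, which encodes TRAIL, had its nearest at 39.8 kb, a peak of 19 tags. TNF, LTA and LTB, which sit together on chromosome 6 in 21.8 kb, had no summit within 50 kb, the nearest being 82.7 kb from LTB. TNFSF12 and TNFSF13 with their read-through gene share 1 place on chromosome 17, 253 kb from the nearest summit, so that they count as 3 genes but describe 1 locus. For TNFSF11, which encodes RANKL, the distance was 75.7 kb, and it was 392 kb for TNFSF13B and 517 kb for CD40LG.

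**Figure D2:**
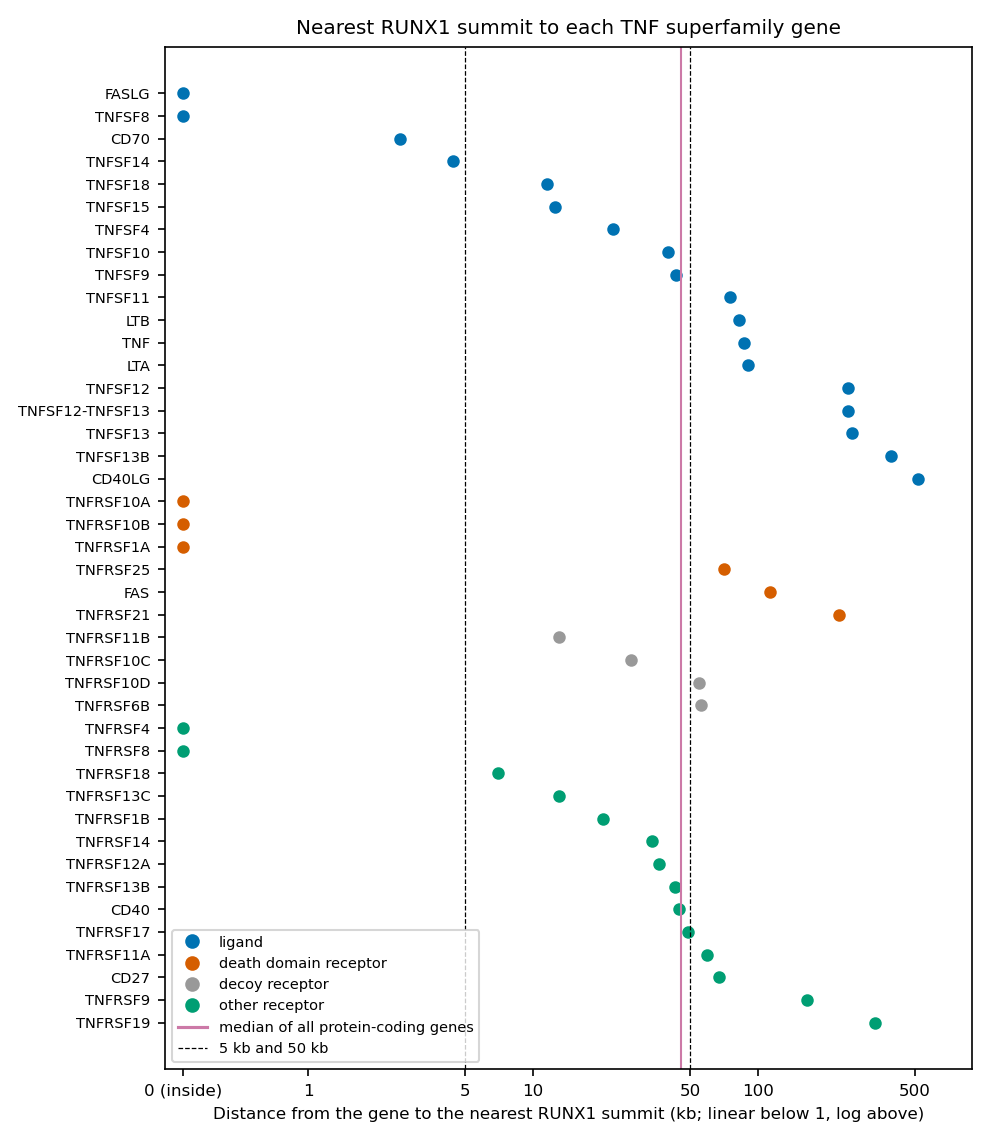
Distance in kb from each of the 42 genes to its nearest RUNX1 summit (horizontal axis, linear below 1 kb and logarithmic above; 0 means inside the gene), with 1 point per gene coloured by role. Summits lay inside 7 genes, within 5 kb of 9 and beyond 50 kb of 18, and the median distance of all protein-coding genes, 45.5 kb, is marked.

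Among the 42 genes picked by symbol are 6 receptors with a death domain, and 3 of them had a summit inside the gene. This share has an interval of 18.8 to 81.2%, where genes of like length gave 1.02 of 6. That like-length share, 17.1%, and the 18.7% of all genes lay just below the interval. Within 5 kb the count was again 3 of 6. There 23.2% of genes of like length and 24.8% of all genes lay inside the same interval. The group is small and the difference was not tested. TNFRSF10B, the TRAIL receptor also called DR5, had 3 peaks within 5 kb on chromosome 8 and 8 within 50 kb, the most of any superfamily gene. The 2 inside it lay 5.42 and 1.45 kb from its upper end, with 15 and 22 tags, and another lay 4.01 kb beyond that end with 27 tags (17.8 to 39.3) and a 7.45-fold enrichment. Beyond the 5 kb limit followed summits at 5.77 kb with 24 tags and at 6.67 kb with 37 tags (26.1 to 51.0). The last was the strongest of these, enriched 8.13-fold with a −log10 q of 20.0. The limit of 5 kb thus ran through a group of summits at this gene, of which the outer 3 lay in the pseudogene TNFRSF10B-AS1. The 3 remaining summits were on the other side, 20.0 to 30.8 kb from the gene and inside RHOBTB2.

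TNFRSF10A, the other TRAIL receptor with a death domain, had 1 narrow peak inside the gene, 74 bp wide with 18 tags (10.7 to 28.4) and a 4.06-fold enrichment over an input level 1.67 times the genome background. The decoy TRAIL receptors between them in the cluster, TNFRSF10C and TNFRSF10D, had their nearest summits at 27.2 and 54.9 kb. For TNFRSF10C that summit was the 37-tag peak beside TNFRSF10B. The cluster of these 4 receptors spans 205 kb and held 6 summits.

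TNFRSF1A, the main receptor of TNF on most cells, had 1 peak on chromosome 12, from 6336810 to 6336896, 5.24 kb past its listed start inside the gene. It was 87 bp wide, with 19 tags (11.4 to 29.7), a 4.28-fold enrichment and a −log10 q of 4.99. A peak of 34 tags (23.5 to 47.5) lay 34.3 kb before the start, inside the annotated span of the next gene, LTBR, the lymphotoxin beta receptor, and of SCNN1A. The other death domain receptors had none within 50 kb. The nearest summit was 70.7 kb from TNFRSF25, 113 kb from FAS and 231 kb from TNFRSF21.

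**Figure D3:**
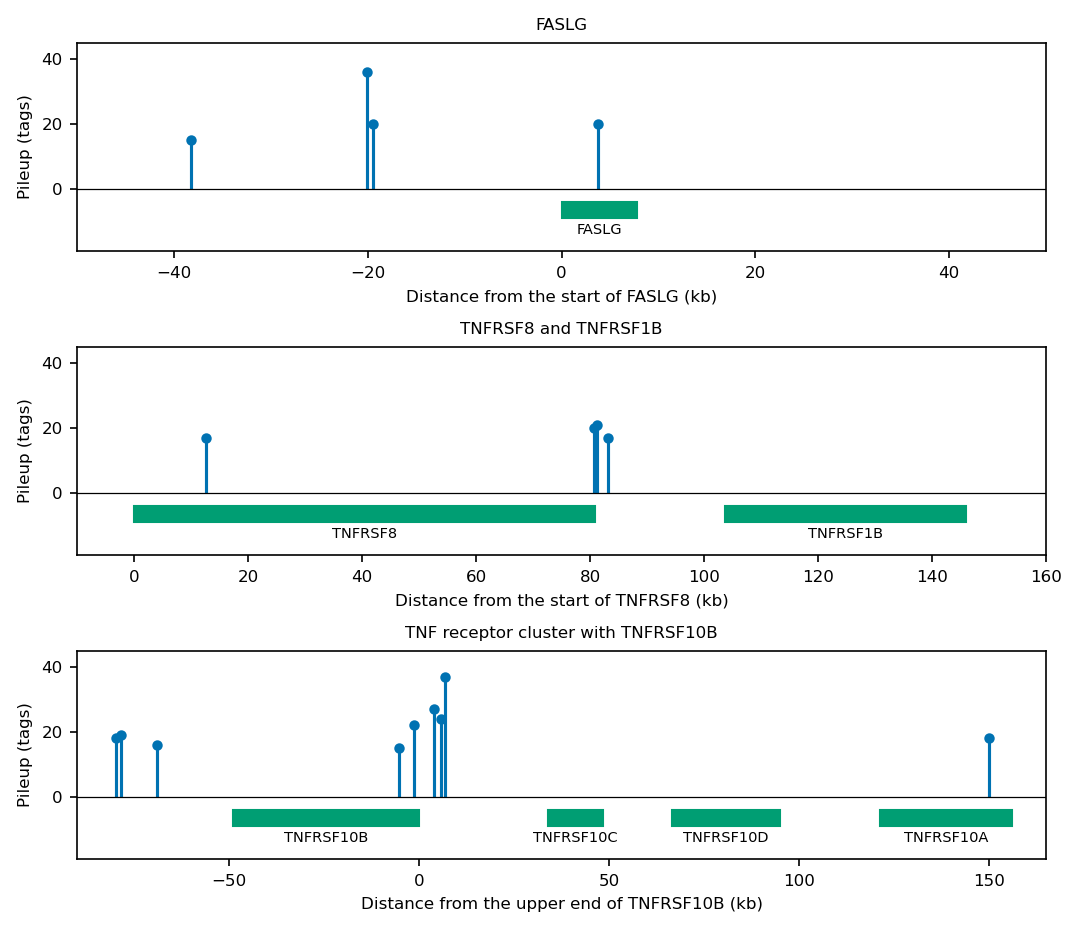
RUNX1 summits around FASLG, TNFRSF8 with TNFRSF1B, and the receptor cluster with TNFRSF10B (horizontal axis, distance in kb from the gene's start or upper end; vertical axis, pileup in tags; green bars are genes). The 36-tag summit stands 20.1 kb before FASLG, 3 summits of 17 to 21 tags gather at the far end of TNFRSF8, and 5 summits of 15 to 37 tags gather at the upper end of TNFRSF10B.

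Of the 14 receptors that signal through TRAF adaptors without a death domain, 2 had a summit within 5 kb, or 14.3% (4.01 to 39.9%), against 19.7% of genes of like length and 24.8% of all genes. TNFRSF8, which encodes CD30, had 4 peaks on chromosome 1. The first lay 12.5 kb past the start with 17 tags (9.9 to 27.2). The other 3 lay at the end of the gene, 0.157 kb before its last base and 0.261 and 2.27 kb beyond it, with 20, 21 and 17 tags and enrichments of 4.7- to 5.62-fold. All 4 were far from the start, and the 3 at the end were also the nearest to TNFRSF1B, the second TNF receptor, at 20.5 to 22.9 kb. TNFRSF4, or OX40, had 1 peak inside the gene, 0.558 kb from its upper end, with 13 tags (6.92 to 22.2) and a 4.37-fold enrichment. It was also the nearest to TNFRSF18, or GITR, at 7 kb.

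The strongest peak within 50 kb of any of the 42 genes stood near TNFRSF13C, the receptor for BAFF on B cells. It spanned 41908707 to 41909012 on chromosome 22, 13.1 kb below the gene and in no annotated gene, with 39 tags (27.7 to 53.3), a 12.5-fold enrichment and a −log10 q of 29.8. It ranked 223 in the list, and its input level was at the genome background. TNFRSF12A, the receptor of TWEAK, had a group of 4 summits at 36.5 to 42.0 kb, with 14 to 22 tags. Between 33.8 and 49.1 kb lay the nearest summits of TNFRSF14, TNFRSF13B, CD40 and TNFRSF17. None within 50 kb was seen for CD27 at 67.1 kb, TNFRSF11A at 59.6 kb, TNFRSF9 at 166 kb or TNFRSF19 at 332 kb. Among the soluble or decoy receptors, TNFRSF11B, which encodes osteoprotegerin, had a 14-tag peak at 13.0 kb and TNFRSF6B had its nearest at 55.7 kb.

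**Figure D4:**
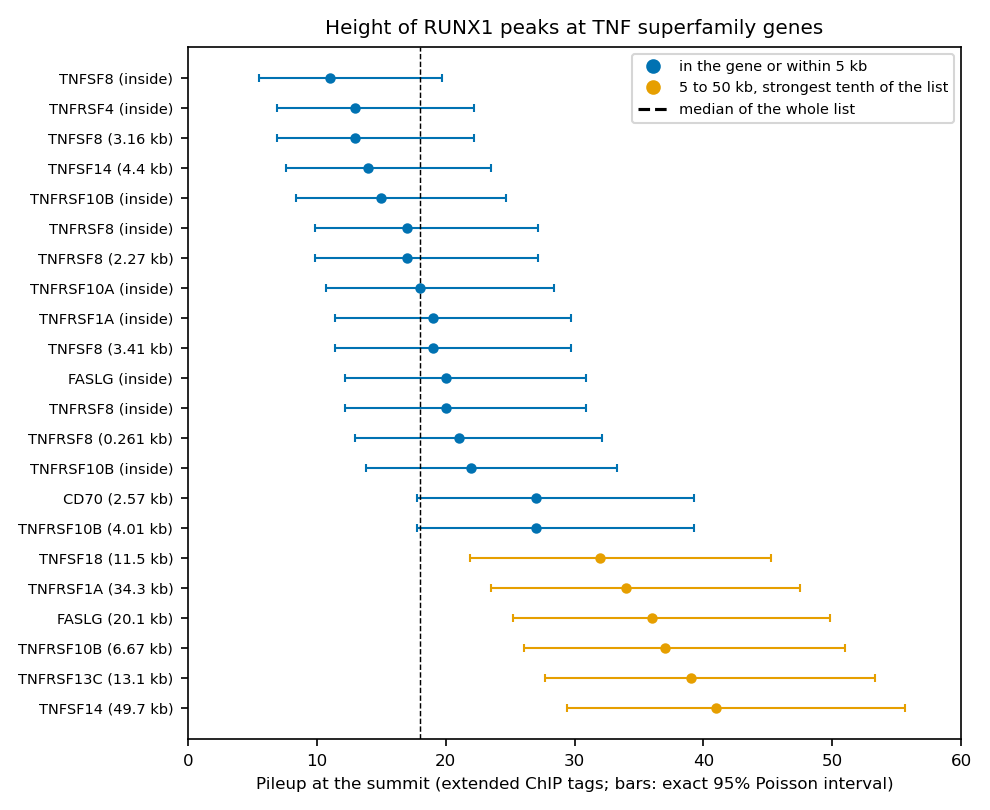
Pileup in extended ChIP tags (horizontal axis) with exact 95% Poisson intervals for the 16 peaks in or within 5 kb of a superfamily gene (blue) and the 6 peaks at 5 to 50 kb that are among the 1359 strongest of the list (orange, chosen for their strength). The blue points run from 11 to 27 tags around the list's median of 18, and the orange ones from 32 to 41.

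The 16 distinct peaks within 5 kb resembled the list at large. Their median pileup was 18.5 tags against 18, their median fold enrichment 4.67 against 5.06 and their median −log10 q 5.17 against 5.9. Among the 1359 strongest peaks of the list, its top 10%, was 1 of them, that of CD70. Of the 32 further peaks between 5 and 50 kb, 6 were among those 1359, or 18.8%, while their median pileup was again 18.5. Input levels at the 16 peaks were 1 to 1.67 times the genome background, where 1 is the floor.

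Counted as peaks per length and not as genes with a peak, the windows of 50 kb around the 42 genes held 48 summits in 4.54 Mb. This is 10.6 per Mb (7.79 to 14.0), against 5.64 per Mb in the same windows of all protein-coding genes. That background was not matched for length, and the windows of the downstream signalling genes, described below, held 10.7 per Mb. The mean number of summits per gene was 1.38, against 0.944 for genes of like length and 1.07 for all genes. The share of genes with a summit, given above, stood closer to its background than this density did. TNFRSF10B with 8 and TNFRSF1A and TNFRSF10C with 5 each were the highest, and 10 of the 48 summits were counted for more than 1 gene. Summits in a group are not independent, so the Poisson interval is too narrow.

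The rule by symbol leaves out 6 members of the superfamily that carry other names. Of these, 4 had a summit within 5 kb, or 66.7% (30.0 to 90.3%), against 31.2% of genes of like length and 24.8% of all genes. Each of the 4 had at least 1 enriched 5-fold or more, where the backgrounds were 19.1% of genes of like length and 15.4% of all genes. The group is of 6 genes only, and the difference was not tested. NGFR, the low-affinity receptor of nerve growth factor and a marker of basal mammary cells, had a peak inside the gene on chromosome 17, from 49510416 to 49510798. It had 60 tags (45.8 to 77.2) and was enriched 16.2-fold with a −log10 q of 52.0, which ranked 37 in the list, so that it was taller than any peak within 50 kb of the 42 genes. LTBR held the 34-tag peak already given under TNFRSF1A. EDAR, the receptor of ectodysplasin A, had a peak of 26 tags (17.0 to 38.1), in an interval that the gene RANBP2 also covers in the annotation. RELT had a peak of 23 tags (14.6 to 34.5). EDA and EDA2R, both on the X chromosome, had none within 50 kb. With these 6 added, 13 of 48 superfamily genes had a summit within 5 kb, or 27.1% (16.6 to 41.0%). This was against 20.8% of genes of like length and 24.8% of all genes, both inside that interval.

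Downstream of the receptors, 18 of 45 signalling genes had a summit within 5 kb, or 40.0% (27.0 to 54.5%), where the background was 24.8% of all genes and 24.6% of genes of like length. Within 50 kb the count was 34, or 75.6% (61.3 to 85.8%), against 52.1% and 52.6%. The count was again 18 genes with the q limit at 0.01, against 24.1% of all genes. With peaks enriched 5-fold or more it was 8 genes, or 17.8%, against 15.4%, and with gene bodies alone 11 genes, or 24.4%, against 18.7%. This list too was picked with earlier results of these data known, and no test of it was made.

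Among the downstream genes with a summit were 4 of 8 adaptors, 4 of 10 kinases, 2 of 5 NF-kappaB subunits, 6 of 12 inhibitors and 1 of 6 subunits of the linear ubiquitin and TAB complexes. Genes of like length gave 1.72, 2.95, 1.24, 2.55 and 1.66 genes in the same order, so that the kinases, NF-kappaB subunits and complex subunits were within about 1 gene of that background. The adaptors were TRAF2, TRAF3, TRAF4 and TRAF5, with best pileups of 15 to 19 tags, while TRADD and FADD, which bind the death domains, had their nearest summits at 32.1 and 53.2 kb. Among the kinases, MAP3K5 had a peak of 37 tags (26.1 to 51.0), and RIPK1, RIPK3 and IKBKB had 14 to 20. The NF-kappaB genes were NFKB1 and RELA. CFLAR, which encodes c-FLIP, an inhibitor of caspase-8, had 4 peaks, the best with 30 tags (20.2 to 42.8) and a 9.68-fold enrichment. CASP8 and CASP10, caspases that the receptor complexes activate, had no summit within 50 kb. OTULIN, TNIP2 and TAB2 had 1 or 2 peaks of 10 to 18 tags.

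Of 36 downstream genes with a listed start, 6 had a summit within 1 kb of it, or 16.7%. This stands beside 0 of the 27 superfamily genes with a listed start and 4.87% of all such genes. The difference was not tested, and the downstream genes had 64 listed windows for 36 genes against 36 for 27. The 15 superfamily genes without a listed start, TNFRSF4 and TNFRSF10B among them, were not counted. The 6 genes were NFKB1 with its summit 8 bp before a start, CFLAR 72 bp after one, BIRC3 206 bp before, TNFAIP3 339 bp after, TRAF4 470 bp before and NFKBIA 930 bp after. TNFAIP3, NFKBIA, BIRC3 and CFLAR are genes that NF-kappaB switches on. That is background and not a result, since genes switched on by NF-kappaB were not counted with and without a summit. The tallest of the 6 summits was that of BIRC3, with 24 tags (15.4 to 35.7), a 7.58-fold enrichment and a −log10 q of 12.8. That of NFKBIA had 23 tags (14.6 to 34.5). The CFLAR summit at the start had 16 tags and a 5.31-fold enrichment. Those of NFKB1, TNFAIP3 and TRAF4 had 19, 13 and 15 tags and were enriched 4.28-, 4.37- and 3.42-fold.

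The BIRC3 peak is printed because it covers a promoter and holds the recognition letters. The 195 bases are the part of the peak that falls in the RefSeq window before the start, on the strand of the gene, chr11:102317234-102317428, with TGTGGT in capitals. The letters begin 55 bp from the summit. At NFKB1, whose peak also covers a promoter, the 72 bases of the peak before the start held no match.
BIRC3: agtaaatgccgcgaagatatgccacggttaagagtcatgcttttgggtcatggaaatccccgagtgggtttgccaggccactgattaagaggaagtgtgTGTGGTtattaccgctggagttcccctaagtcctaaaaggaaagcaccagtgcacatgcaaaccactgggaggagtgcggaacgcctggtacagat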

How the data were processed

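RUNX1 ChIPseq was analysed from 1 immunoprecipitated library and 1 input library, grouped by the antibody in their labels. Bowtie2 and the build hg38 are named in the submitters' processing notes. Per the file headers, the authors called peaks with MACS 2.1.2 at a q-value limit of 0.05, with 54 bp tags extended to 74 bp and 1 tag kept per position and strand, so that a pileup cannot exceed 148. The pileup the authors deposited is a signal, the deposited fold enrichment is a ratio, and the deposited q, the measure of strength used here, is a −log10 value. Each was taken as deposited. The deposited p was not used.

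Summits were assigned to RefSeq genes of GRCh38.p14 on chromosomes 1 to 22, X and Y (Python 3.11.15, pandas 2.3.3, scipy 1.17.1), and the 93 symbols of the gene lists were all matched. Distances run from the nearer end of the gene. Listed starts and strands come from the RefSeq promoter table, where genes can have several and 15 superfamily genes have none. The like-length share is the mean, over the genes of a list, of the share among the 200 genes nearest in length. The input level was recovered from pileup and fold enrichment. The assignment was tested on simulated peaks. Every superfamily or downstream gene with a summit within 5 kb is named, except 1 downstream gene that is counted but not reported here, and peaks at 5 to 50 kb are described where among the 1359 strongest by −log10 q or as the nearest. Members and gene lists were chosen with earlier results of these data known. Alternatives were a stricter q of 0.01, peaks enriched 5-fold or more, gene bodies, 50 kb, any overlapping base, merging within 1 kb, leaving out the arms of raised input (1 from 140 Mb, 5 from 120 Mb, 8 from 100 Mb), length deciles and other motif lengths.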

Additional observations from a re-analysis of the deposited data

How the results depend on the processing

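Beside the main values of 9 superfamily genes, 4 ligands, 5 receptors, 18 downstream genes and 16 peaks, keeping only peaks enriched 5-fold or more left 4, 2, 2, 8 and 6, fewer by construction. With 50 kb on either side they were 24, 9, 15, 34 and 48, and the like-length share went from 19.2 to 49.0%. With gene bodies alone they were 2 ligands, 11 downstream genes and 9 peaks. Promoter windows with the motif went from 8 to 4 when a further T was required, or 11.1% against 5.57% of all windows. With TGTGGT alone it was 7, or 19.4% against 11.3%. The other alternatives kept each count within 1.5 times. No paired analysis was possible because neither group has a second library. Heights near 10 tags are the limit of detection.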
